A study of Mus musculus with 8 samples.

Results

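Fatty acid elongases and cytidine diphosphate diacylglycerol (CDP-DAG) synthases were followed in RNA-seq counts from mouse lung myofibroblasts, the contractile, elastin-producing mesenchymal cells of the growing alveolar wall. The 9 genes are the 7 elongases Elovl1 to Elovl7 and the synthases Cds1 and Cds2, out of 43432 genes in the deposited table, and each was found by its mouse Ensembl identifier. The families were chosen by the group difference in these same counts, in which Elovl7 and Cds1 were already known to be lower, so the group difference is given here as a description of the members, with no p-value. All 8 libraries came from C57BL/6 mice at postnatal day 7, of which 4 were labelled wildtype (control 1 to control 4) and 4 Fra-2 transgenic, with constitutive expression of Fra-2 (Fra-2 1 to Fra-2 4). The source names of the transgenic libraries also carry the word control, and the sources used here do not give the promoter of the transgene, how the cells were isolated or the number of animals. P-values therefore measure the spread between these libraries, which may be technical.

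An elongase adds a pair of carbons to a fatty acyl-CoA in the endoplasmic reticulum by carrying out the first, condensing step of the elongation cycle, and shared partner enzymes complete the round. ELOVL1, ELOVL3, ELOVL6 and ELOVL7 act mainly on saturated and monounsaturated chains, ELOVL2 and ELOVL5 on polyunsaturated chains, and ELOVL4 makes the longest chains. The CDP-DAG synthases combine phosphatidic acid with CTP, and their product is the precursor of phosphatidylinositol, the lipid behind phosphoinositide signalling. In the lung lipid synthesis is best known from the epithelial cells that make surfactant.

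The stretches of 250 bases before the RefSeq start sites (build GRCm38.p6) are printed for the 2 genes that differed, with Cds2 as the paralog that did not, because the labelled transgene is a transcription factor of the AP-1 family, whose dimers can bind AP-1 and CRE elements. Capitals mark matches to TGACGT, the core of a CRE element, on either strand.
Elovl7 (chr13:108214154-108214403, plus strand): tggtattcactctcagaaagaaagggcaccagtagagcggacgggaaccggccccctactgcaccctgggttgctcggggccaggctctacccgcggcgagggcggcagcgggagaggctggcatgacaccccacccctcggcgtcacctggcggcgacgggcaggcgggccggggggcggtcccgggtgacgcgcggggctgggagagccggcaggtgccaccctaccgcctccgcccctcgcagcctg
Cds1 (chr5:101764880-101765129, plus strand): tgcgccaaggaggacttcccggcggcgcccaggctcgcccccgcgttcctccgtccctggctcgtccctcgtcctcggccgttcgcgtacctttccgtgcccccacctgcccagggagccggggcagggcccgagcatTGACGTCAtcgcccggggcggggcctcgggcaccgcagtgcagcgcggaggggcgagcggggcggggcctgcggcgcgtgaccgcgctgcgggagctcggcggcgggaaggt
Cds2 (chr2:132262898-132263147, plus strand): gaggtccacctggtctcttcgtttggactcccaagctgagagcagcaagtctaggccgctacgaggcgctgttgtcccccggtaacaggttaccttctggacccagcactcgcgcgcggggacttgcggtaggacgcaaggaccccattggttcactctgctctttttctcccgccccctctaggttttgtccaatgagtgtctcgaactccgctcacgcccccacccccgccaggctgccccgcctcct
The capitals in the Cds1 window are 2 overlapping matches, 1 on each strand, that begin 112 and 110 bases before the start. Neither other window holds a match, and no window of the 8 members with a RefSeq entry holds the AP-1 motif TGANTCA on either strand. Of 32851 windows of this length in the RefSeq table, 6.47% hold TGACGT and 6.75% hold TGANTCA. The windows of Elovl7 and Cds1 are 73.6% and 77.6% G and C, against a median of 52.4% over all windows, and the windows of all 8 members with an entry are above that median, from 55.6% for Elovl5 to 87.2% for Elovl2. Elovl3 has no entry in the table. These matches describe letters in a short window and no binding was measured.

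Total counts ran from 29926239 to 41335957 per library, and 15422 genes passed the filter on low counts. Levels are given in CPM, the usual depth-scaled unit of counts, with TMM-scaled library sizes, means are ± SD over n = 4 libraries per group, and log2 fold changes are of the Fra-2-labelled libraries over the controls, with standard error (SE) and 95% interval from the fit over all genes. Fosl2, which encodes Fra-2, measured 120 ± 15 CPM in the controls and 132 ± 25.7 CPM in the Fra-2-labelled libraries (two-sided exact permutation p = 0.457, where 0.0286 is the smallest possible), so every direction below is that of the labels. Over all tested genes 111 were higher and 46 lower at an edgeR adjusted p of 0.05, together 1.02%. The 11 listed lung myofibroblast markers were all detected, with summed levels of 17356 to 19478 CPM in the controls and 17473 to 19931 CPM in the Fra-2-labelled libraries. Tgfbi, the most abundant of them over all 8 libraries, measured 4646 and 4239 CPM.

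Of the 9 members 8 passed the filter, and 2 of these were called, both lower, and 0 were called higher, where 1.02% of tested genes were called in either direction, 0.298% lower and 0.72% higher. The same 2 genes, Elovl7 and Cds1, were the members whose groups did not overlap, a pattern found in 5.76% of tested genes, and in 2.42% with the Fra-2-labelled libraries lower. The remaining 6 tested members overlapped between groups. These counts follow from how the genes were chosen.

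Elovl7, which extends saturated acyl chains, lies on chromosome 13 (ENSMUSG00000021696, 108214404 to 108285683 in GRCm38). It measured 11.6, 5.96, 7.08 and 5.75 CPM in control 1 to control 4 and 2.05, 2.90, 2.84 and 2.09 CPM in Fra-2 1 to Fra-2 4. Every control library was above every Fra-2-labelled library, and control 1 was the highest by a wide margin. The means were 7.59 ± 2.72 and 2.47 ± 0.461 CPM, from 191 to 504 reads per control library and 71 to 91 reads per Fra-2-labelled library. The log2 fold change was -1.62 (SE 0.266), so that the level was 3.08-fold lower (interval 2.08 to 4.57). The processed pseudogenes Gm30747 and Gm32376 overlap it on the opposite strand. Without control 1 the log2 fold change was -1.34.

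Elovl1, which makes saturated very long chains and lies on chromosome 4, measured 45.6, 47.9, 45.8 and 54.8 CPM in the controls and 56.1, 47.7, 52.3 and 59.4 CPM in Fra-2 1 to Fra-2 4. The groups overlapped, and the fold of 1.11 had an interval of 0.941 to 1.31. Cdc20 overlaps Elovl1 on the opposite strand with 1399 reads over the 8 libraries, against 14285 for Elovl1, and the protocols name no strand-marking step. Elovl6, which converts palmitate to stearate, measured 71.5, 75.2, 68.5 and 75.4 CPM in the controls and 72.9, 42.1, 57.5 and 69.7 CPM in Fra-2 1 to Fra-2 4. Its control libraries lay close together, while Fra-2 2 was lowest and Fra-2 1 and Fra-2 4 lay within the control range. The fold was 0.834 (interval 0.672 to 1.04). Elovl3, best known from brown fat and skin, had 0, 9, 2 and 8 reads in the controls and 0, 0, 1 and 0 in Fra-2 1 to Fra-2 4. It did not pass the filter and no fold is given.

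Among the elongases of polyunsaturated chains, Elovl5 measured 71.3, 52.7, 57.5 and 62.9 CPM in the controls and 59.0, 45.3, 59.0 and 82.1 CPM in Fra-2 1 to Fra-2 4. The group labelled Fra-2 transgenic held both the lowest and the highest library, and the log2 fold change of 0.0065 (SE 0.158) changed sign under several alternative settings. Its fold interval was 0.794 to 1.27. Elovl2, the elongase that acts on longer polyunsaturated chains, was scarce, at 1.37 to 3.01 CPM in the controls and 1.62 to 2.21 CPM in the Fra-2-labelled libraries. Elovl4, the elongase of the longest chains, ranged over 1.34 to 2.08 CPM and 1.23 to 3.43 CPM, with Fra-2 1 the highest library. At 39 to 119 reads per library the intervals of these 2 genes were wide, 0.506 to 1.3 for Elovl2 and 0.663 to 1.95 for Elovl4, and the log2 fold change of Elovl4 went from 0.18 to -0.19 without Fra-2 1.

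Cds1, a CDP-DAG synthase of the endoplasmic reticulum, lies on chromosome 5 (ENSMUSG00000029330, 101765130 to 101823858 in GRCm38). It measured 14.2, 14.0, 10.1 and 9.84 CPM in control 1 to control 4 and 4.09, 4.84, 4.06 and 3.55 CPM in Fra-2 1 to Fra-2 4. The lowest control library was still above the highest Fra-2-labelled library. The means were 12.0 ± 2.40 and 4.14 ± 0.531 CPM, a log2 fold change of -1.54 (SE 0.193) and a level 2.91-fold lower (interval 2.19 to 3.88). Cds2, its paralog on chromosome 2 (ENSMUSG00000058793, 132263148 to 132312050), measured 176, 179, 148 and 171 CPM in the controls and 186, 185, 163 and 176 CPM in Fra-2 1 to Fra-2 4. Its groups overlapped, and its fold of 1.05 had an interval of 0.911 to 1.21. Cds1 is overlapped on its own strand by Gm43273 and Gm43272, annotated genes that are not listed in the deposited counts.

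**Figure D1:**
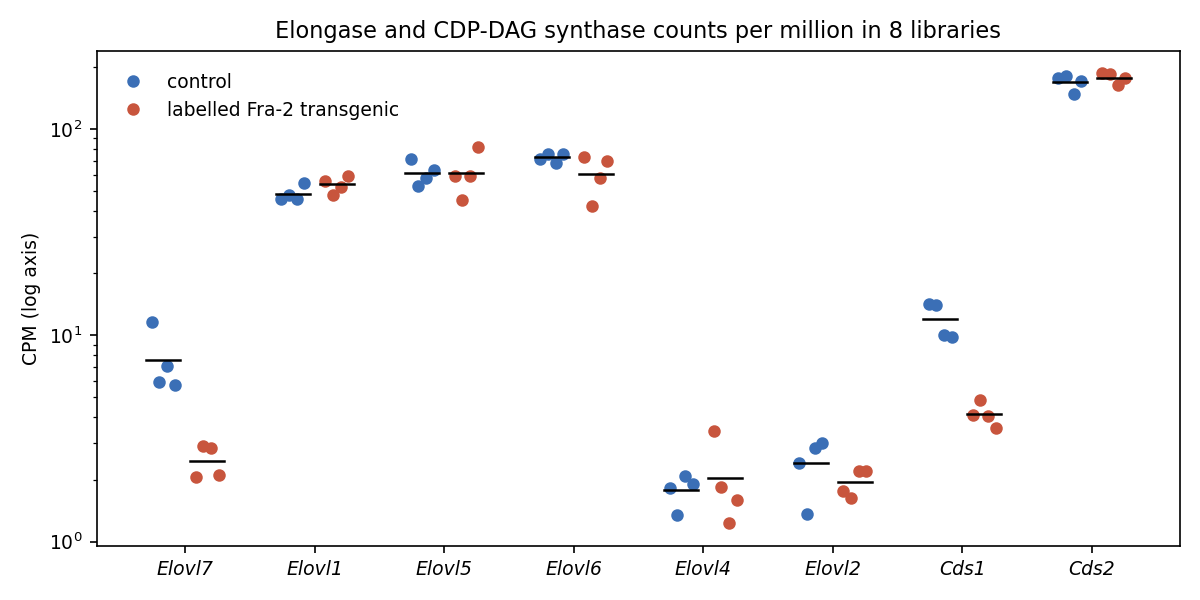
CPM on a log axis for the 8 tested members, with 1 point per library, controls in blue and Fra-2-labelled libraries in red, and black lines at the group means. Elovl7 (means 7.59 and 2.47 CPM) and Cds1 (12.0 and 4.14 CPM) are separated between groups, while the points of the 6 other genes overlap.

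**Figure D2:**
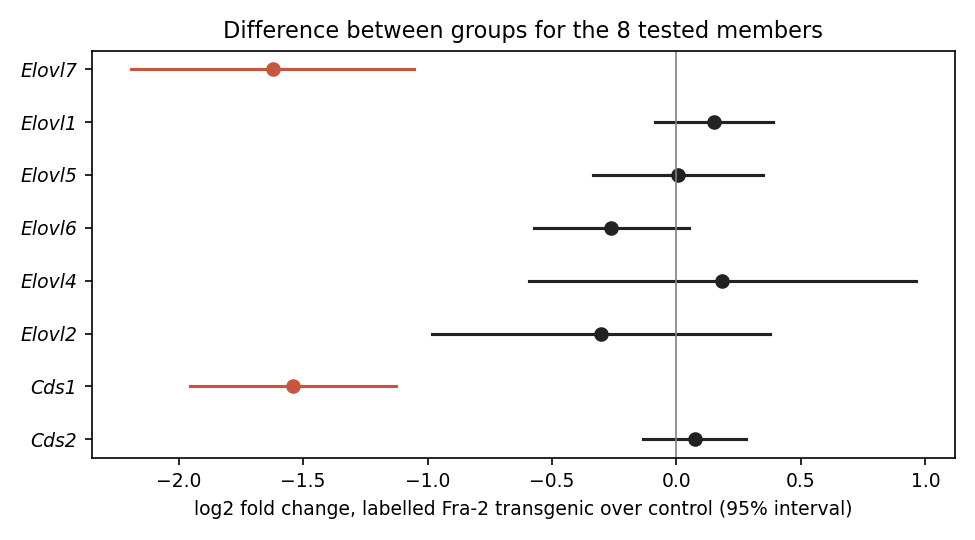
Log2 fold changes (points) with 95% intervals (lines) for the 8 tested members, red where the groups do not overlap. The intervals of Elovl7 and Cds1 lie wholly below 0, and those of the 6 other genes include 0.

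Elovl7 and Cds1 were minor members of their families by level, and the family sums overlapped between groups. Scaled by the length of the annotated exons, Cds1 made up 15.7, 15.3, 13.7 and 11.8% of Cds1 plus Cds2 in the controls and 4.85, 5.72, 5.46 and 4.48% in Fra-2 1 to Fra-2 4. These shares, and the length-scaled sums below, depend on the length used. The annotated exons of Cds1 and Cds2 span 3939 and 9125 bases, but their median transcripts 2229 and 937. Shares by other lengths were not computed. The sum of both synthases was 21.5 ± 2.05 and 20.5 ± 1.22 CPM per kb, and the groups overlapped. Elovl7 made up 3.8 ± 1.23% of the elongase sum in the controls and 1.32 ± 0.451% in the Fra-2-labelled libraries. The elongase sum was 49.6 ± 3.24 and 48.4 ± 7.90 CPM per kb, again with overlap.

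Levels per length were ordered by the mean log2 level over the 8 libraries. The genes were chosen by the group difference and not by this level. The low Fra-2-labelled values of Elovl7 and Cds1 still enter their places in the order and the tests of those steps. Cds2 (18.5 ± 1.57 CPM per kb in the controls), Elovl1 (17.8 ± 1.59) and Elovl5 (17.3 ± 2.26) were the highest. Across all 8 libraries Cds2 was above Elovl1 in 3 and Elovl1 above Elovl5 in 6, and neither pair of neighbours differed beyond its spread (two-sided exact sign-flip permutation test on log2 ratios, adjusted over 7 neighbour pairs, p = 0.773 and 0.241). Elovl6 followed at 11.3 ± 0.517 CPM per kb, below Elovl5 in 8 of 8 libraries by 0.75 on the log2 scale (adjusted exact p = 0.0182; 0.00781 is the smallest unadjusted p). Without length scaling the order of these 2 genes was the other way, with Elovl6 at rank 2 and Elovl5 at rank 3. In CPM, Elovl6 averaged 72.7 in the controls and 60.6 in the Fra-2-labelled libraries, and Elovl5 averaged 61.1 and 61.4. The tests of these steps do not cover the choice of length. Cds1 (3.06 ± 0.610 CPM per kb in the controls) was below Elovl6 in 8 of 8 libraries, by 1.91 on the log2 scale in the controls and 3.14 in the Fra-2-labelled libraries. Elovl7 (1.89 ± 0.677 CPM per kb in the controls) was below Cds1 in 8 of 8, by 0.73 and 0.78 (adjusted exact p = 0.0182 for both steps). Elovl4 (0.589 ± 0.105) and Elovl2 (0.607 ± 0.186) were the lowest and did not differ beyond their spread (adjusted exact p = 0.556). Elovl7 was above Elovl4 in 6 libraries, the 4 controls and 2 of those labelled Fra-2 transgenic (adjusted exact p = 0.137). In the Fra-2-labelled libraries alone the order had Elovl1 above Cds2 and Elovl4 above Elovl7.

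**Figure D3:**
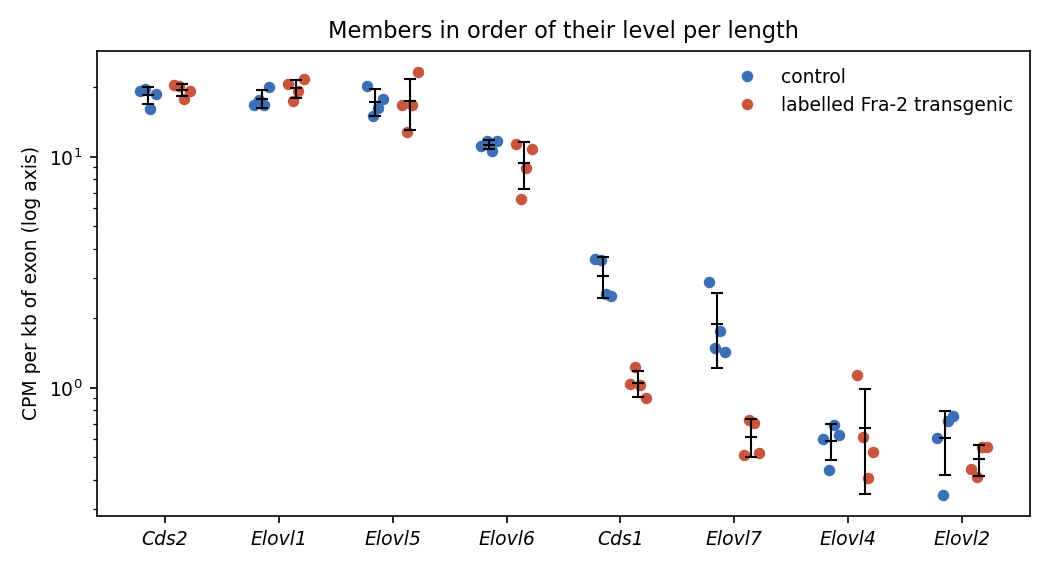
Levels in CPM per kb of annotated exon on a log axis for the 8 tested members in their order over all libraries, 1 point per library, controls in blue and Fra-2-labelled libraries in red, with black bars for mean and SD. Cds2, Elovl1 and Elovl5 are highest at 12.9 to 23.3 CPM per kb, and Elovl7 in the Fra-2-labelled libraries (0.615 ± 0.115) lies at the level of Elovl4 and Elovl2.

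The genes of the reactions around the members did not pass the test. Over 9 lists holding 109 distinct tested genes, edgeR called 0 higher and 0 lower, where 1.02% of all tested genes were called. At an unadjusted p under 0.05 there were 8 (7.34%), against 8.71% of all tested genes. DESeq2 called 0 higher and 1 lower, and limma-voom called 0 and 0. The median log2 fold change of the 109 genes was 0.04, beside -0.012 for all tested genes.

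In the elongation cycle, the 6 tested partners of the elongases had 0 called in either direction and a median of -0.041. Tecr, the reductase that completes each round and the most abundant partner, measured 255 ± 44.6 CPM in the controls and 252 ± 23.4 CPM in the Fra-2-labelled libraries. Hsd17b12, the ketoacyl reductase of the cycle, measured 23.9 ± 3.62 and 21.5 ± 4.83 CPM. Of the dehydratases, Hacd3 measured 42.1 ± 4.95 and 40.4 ± 4.60 CPM, and Hacd1 had the log2 fold change farthest from 0 among the partners at -0.42 (SE 0.268, edgeR adjusted p = 0.762). The 7 tested desaturases had 0 called and a median of 0.092. Scd2, the stearoyl-CoA desaturase most abundant here, measured 279 ± 33.3 and 252 ± 15.2 CPM, and Fads1, which acts on polyunsaturated chains before or after ELOVL5, measured 195 ± 22.6 and 186 ± 21.9 CPM. These enzymes share substrates with the elongases, and each named one overlapped between groups.

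Upstream and downstream of the elongases 0 genes were called as well. Of 16 genes of fatty acid synthesis and its regulators 0 were called, and Acly, which makes cytosolic acetyl-CoA, measured 149 ± 7.95 and 137 ± 12.2 CPM. Of 10 acyl-CoA synthetases 0 were called (median 0.18), with Acsl5, the most abundant, at 61.6 ± 6.70 and 63.5 ± 7.37 CPM. Of 13 ceramide synthases and other users of very long chains 0 were called. Cers2, the ceramide synthase that takes very long chain acyl-CoAs, measured 198 ± 19.3 and 211 ± 18.5 CPM. The log2 fold change was positive for 8 of 16 synthesis genes, 9 of 10 acyl-CoA synthetases and 7 of 13 very long chain users. Over all tested genes it was positive for 7377 of 15422.

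Around the CDP-DAG synthases, 0 of 19 genes of phosphatidic acid synthesis and 0 of 6 phosphatidic acid phosphatases were called. Lclat1, a lysocardiolipin acyltransferase, was the most abundant of the first list at 164 ± 30.8 and 208 ± 26.4 CPM (edgeR adjusted p = 0.444), and Plpp3, a lipid phosphate phosphatase, led the second at 219 ± 23.6 and 227 ± 19.9 CPM. Of 8 genes listed around the use of CDP-DAG and its synthesis in mitochondria 0 were called. Not all of these use or make CDP-DAG themselves, since the list also holds acyltransferase genes such as Lclat1. Cdipt, which joins CDP-DAG to inositol, measured 11.8 ± 2.70 and 12.7 ± 1.69 CPM, and Tamm41, the mitochondrial CDP-DAG synthase, 4.86 ± 0.777 and 4.18 ± 0.648 CPM. Of 25 phosphoinositide cycle genes 0 were called, and Pitpna, a phosphatidylinositol transfer protein, measured 153 ± 9.29 and 157 ± 13 CPM. Plce1, phospholipase C epsilon, named after its values were seen, measured 16.3, 15.3, 13.1 and 15.2 CPM in the controls and 8.71, 11.6, 10.5 and 8.24 CPM in Fra-2 1 to Fra-2 4. Its groups did not overlap and its log2 fold change was -0.62 (SE 0.156). It missed the edgeR threshold at an adjusted p of 0.094 but passed without Fra-2 2 (0.0473) and in DESeq2 (0.013).

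**Figure D4:**
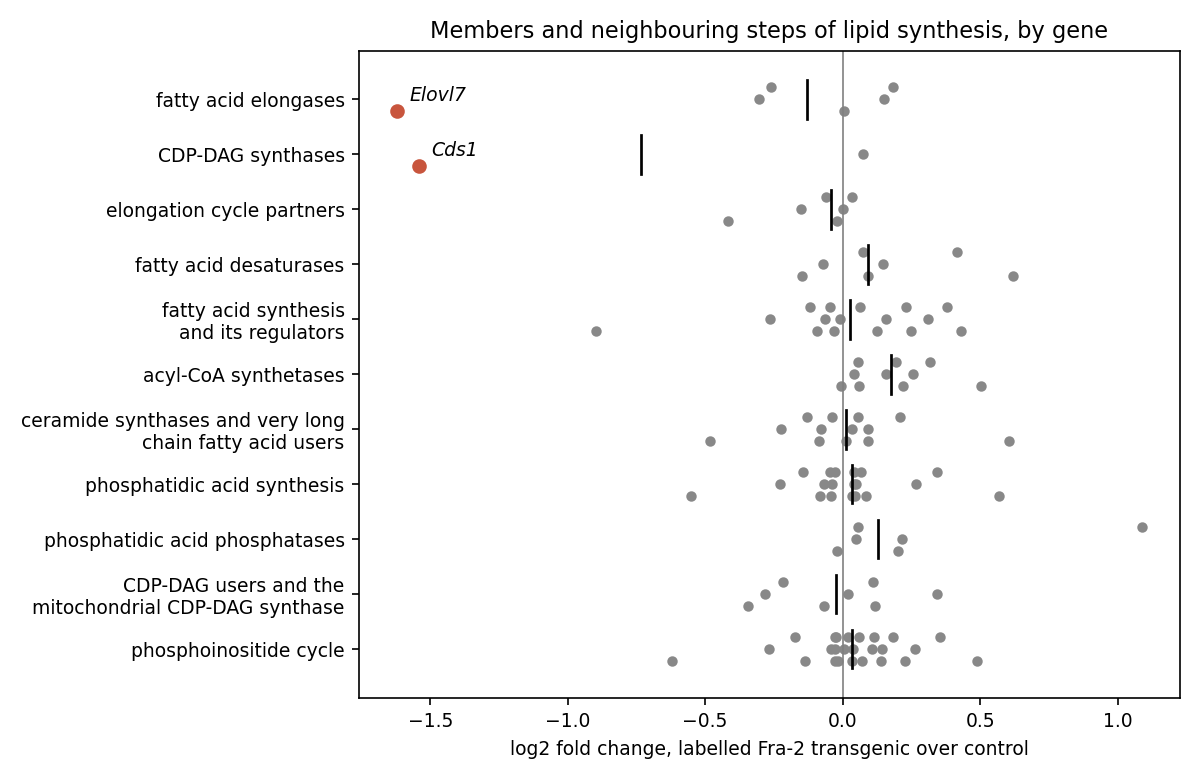
Log2 fold changes of each tested gene in the 2 families and in 9 lists of neighbouring lipid reactions, 1 point per gene, with black bars at list medians and called genes in red and named. Elovl7 (-1.62) and Cds1 (-1.54) are the called points, and the 109 other pathway genes lie between -0.90 and 1.09.

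The genes on either side of the 2 loci were examined after the members' values were known. Within 1 Mb of the Elovl7 start site 6 other genes were tested and 0 were called, with log2 fold changes of -0.20 to 0.39. Its nearest tested neighbours Ercc8, a DNA repair gene, and Ndufaf2, a complex I assembly factor, had values of -0.20 and -0.15. Within 1 Mb of Cds1, 6 genes were tested and 0 were called, with values of -0.47 to 0.035, and Wdfy3, an autophagy adaptor at 204 and 195 CPM, had -0.060. At unadjusted p under 0.05, only Zswim6 (0.39, SE 0.107) of these 12 genes passed.

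**Figure D5:**
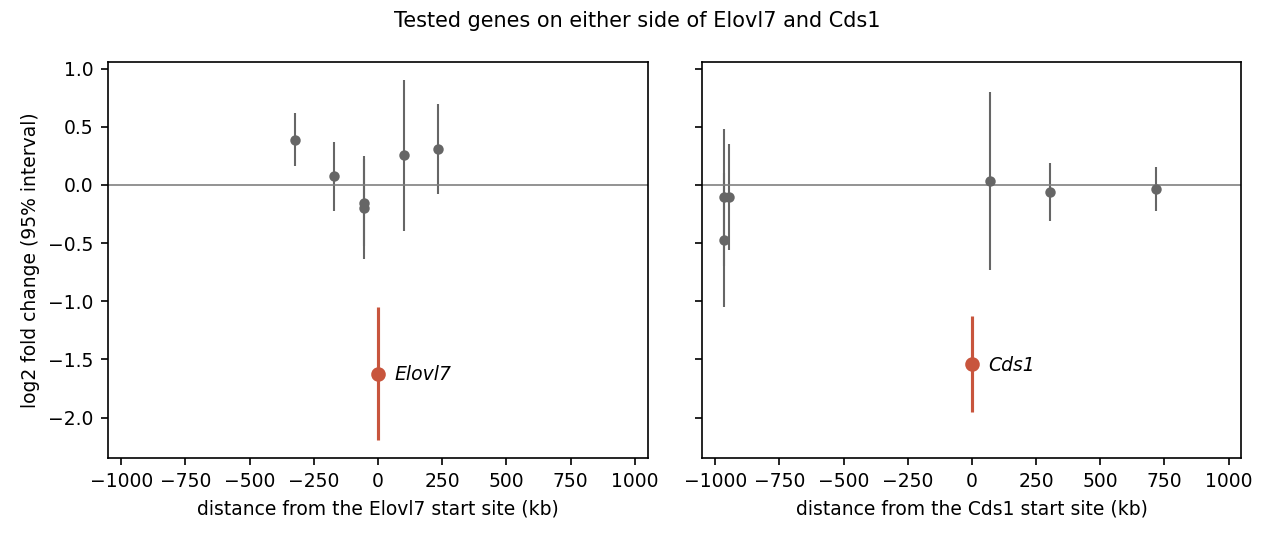
Log2 fold changes with 95% intervals for Elovl7 and Cds1 (red) and the tested genes within 1 Mb of each start site (grey), plotted by distance in kb along the direction of transcription. The 2 members lie at -1.62 and -1.54, and their neighbours between -0.47 and 0.39.

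Across the libraries Elovl7 and Cds1 followed each other, mainly through the difference between groups. Pearson's r of log2 CPM over the 8 libraries was 0.95 between them, and 0.56 after each group's mean was removed. Both genes were known to be lower when they were chosen, so a high r over all 8 libraries follows from that choice. Between Cds1 and its paralog Cds2 r was -0.21, and 0.60 after each group's mean was removed. Within groups r ran from -0.76 (Elovl2 and Cds1) to 0.77 (Elovl1 and Elovl6) over the pairs of tested members. Neither 0.56 nor 0.60 stood apart from these. Of 9552 other protein-coding genes averaging 5 CPM or more, those most like Elovl7 included Pappa2 (r = 0.98), Otof (0.98), Adgrg2 (0.96) and Cds1. Pappa2 encodes a protease of IGF-binding proteins, Otof a calcium sensor of the ferlin family and Adgrg2 an adhesion receptor. The 5 most like Cds1 were Otof (0.98), the scaffold gene Shank1 (0.98), Adgrg2 (0.96), the HGF receptor gene Met (0.95) and Elovl7. With the group means removed, r with Elovl7 was 0.87 for Pappa2, 0.87 for Otof and 0.81 for Adgrg2, and r with Cds1 was 0.87 for Shank1, 0.70 for Otof, 0.47 for Met and 0.17 for Adgrg2. The genes named as most alike were picked by r over these same libraries. Each was itself lower at an edgeR adjusted p under 0.05. Their r within groups was not set beside that of the other genes. All these values describe 8 libraries in 2 separated groups, and genes of 1 library share its depth and cells.

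Marker levels of other cells were set beside these differences. In bulk samples fewer cells of a type and less RNA per cell cannot be told apart. The summed level of 7 pericyte markers was 1578 to 1943 CPM in the controls and 1217 to 1559 CPM in the Fra-2-labelled libraries, with no overlap, and 0 of 7 were called. Most of it was Rgs5, a regulator of G protein signalling, at 1391 ± 95.7 and 1025 ± 141 CPM (edgeR adjusted p = 0.092, and 0.0151 in DESeq2). Of the 7 markers 3 had a positive log2 fold change, up to 0.53, and 4 a negative one, and the median was -0.090. Lipofibroblast and matrix fibroblast markers summed to 946 to 1260 and 1295 to 1519 CPM, also without overlap but in the other direction, and Dcn, a small proteoglycan gene, was the 1 of 10 tested that was called. Dcn measured 140 ± 17.7 and 212 ± 30.2 CPM (higher, edgeR adjusted p = 0.0323) and lost its call without control 1, 2 or 3 or Fra-2 1, 3 or 4 (up to 0.148, without Fra-2 3). Col14a1, the most abundant gene of that list, measured 647 and 721 CPM. The part of these cells in the levels of Elovl7 and Cds1 was not tested.

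Epithelial markers summed to 80.5 to 176 CPM in the controls and 152 to 275 CPM in the Fra-2-labelled libraries, with 0 of 15 called. Control 1, the library with the most Elovl7, had the lowest sum of all 8 libraries for epithelial, endothelial, leukocyte, erythroid, mesothelial, lipofibroblast and cartilage markers. Its sum of lung myofibroblast markers, 17356 CPM, was also the lowest of the 8. Sftpc, the surfactant protein C gene, measured 44.6 and 63.5 CPM. Endothelial markers summed to 79.8 to 111 and 99.8 to 113 CPM (0 of 11 called), with Cdh5, VE-cadherin, the most abundant of them over all 8 libraries at 24.5 and 27.7 CPM. Leukocyte markers summed to 103 to 153 and 133 to 172 CPM (0 of 12), led by the lysozyme gene Lyz2 at 42.7 and 51.7 CPM, and erythroid markers to 17.2 to 142 and 19.0 to 77.2 CPM (0 of 6), led by the globin gene Hbb-bs at 29.8 and 16 CPM. All 4 of these sums overlapped between groups. The log2 fold change was positive for 11 of 15 epithelial, 10 of 11 endothelial, 7 of 12 leukocyte and 0 of 6 erythroid markers. Over all tested genes it was positive for 7377 of 15422. The groups did not overlap for 1 epithelial and 2 endothelial markers, and 0 of these were lower in the Fra-2-labelled libraries. That pattern, in either direction, was found in 5.76% of tested genes.

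The sums of mesothelial markers were 3.95 to 9.54 and 7.20 to 14.0 CPM (0 of 5 called), with Upk3b at 1.70 and 3.04 CPM and Wt1, a defining marker, at 0 in 3 of the controls and at 0.0637 to 0.473 CPM in the Fra-2-labelled libraries. Of the 5 tested mesothelial markers 4 had a positive log2 fold change and 1 a negative one, with a median of 0.84. Schwann and neuronal markers summed to 9.44 to 19.0 and 12.2 to 19.9 CPM (0 of 4), with S100b at 11.4 and 12.3 CPM. Sox10, the transcription factor of Schwann cells, had 11 reads in all, with 0 in all 4 controls and in Fra-2 2. Cartilage markers summed to 56.7 to 81.0 and 72.8 to 101 CPM (0 of 3), with Col2a1 at 42.4 and 58.0 CPM (edgeR adjusted p = 0.134, and 0.0339 in DESeq2) and Matn1 at 0 reads in all libraries. The other tested cartilage markers, given after their values were seen, were Acan at 0.789 and 4.34 CPM, without overlap (edgeR adjusted p = 0.173), and Sox9 at 26.6 and 21.1 CPM. Col2a1 was also without overlap, so the groups were separated for 2 of the 3 tested cartilage markers. Both were higher in the Fra-2-labelled libraries. Separation in either direction was found in 5.76% of tested genes. Genes of RNA quality and isolation stress summed to 6594 to 11541 and 6772 to 8623 CPM (0 of 10), led by Egr1, an immediate early gene, at 3822 and 4211 CPM. In that list 4 of 10 genes had a positive log2 fold change, and Malat1, a nuclear RNA named after its values were seen, measured 3535 ± 2047 and 2034 ± 465 CPM (edgeR adjusted p = 0.634). Their part in the levels of the members was not tested either.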

How the data were processed

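The values deposited by the authors are unnormalized gene counts, whole numbers for 43432 mouse Ensembl identifiers in 8 libraries. Per the labels' protocols, mRNA was taken from 50 ng of total RNA and its cDNA amplified before transposase-based library preparation. Amplification from little RNA can add spread between libraries, which was not measured here. The submitters' processing notes name GRCh38, a human build, while the aligner, counter and annotation used are not stated: not given in the sources used here. Symbols, exon lengths and positions came from GENCODE M21 (GRCm38) and start-site sequences from RefSeq (GRCm38.p6). Identifiers without a symbol held 0.0842% of counts.

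Counts were analysed in R 4.3.3 with edgeR 4.0.16: filterByExpr (minimum count 10, total 15), TMM, robust quasi-likelihood F-test, two-sided, Benjamini-Hochberg at 0.05 over 15422 genes. DESeq2 1.42.0 and limma-voom (limma 3.58.1) were among the alternatives. Counts were simulated for these 15422 genes and 8 libraries, with changes placed only in genes averaging 1 CPM or more. Of these changes, 30% of 1.5-fold, 66% of 2-fold, 96% of 4-fold and 98% of 8-fold were recovered. Of 158 calls, 13 were false. Total counts of 29926239 to 41335957 set the counting error.

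Members and lists were chosen with earlier results of these data known. By rule the text names all 9 members, Fosl2, up to 3 called members (or the most abundant) of each pathway list, the most abundant gene and, where any is called, the called gene with the smallest adjusted p of each other list, and the 5 genes most correlated with Elovl7 and Cds1. Of the genes this rule names, 1 is not reported here. Enzymes of the elongation cycle, desaturases and CDP-DAG users could also be named by value. Neighbouring genes, Plce1, Acan, Sox9, Malat1 and defining markers at 0 were named after their values were seen.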

Additional observations from a re-analysis of the deposited data

Results flagged for a closer look

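Elovl3 in the libraries labelled Fra-2 transgenic had 1 library far from the others: Fra-2 3 held the single read of the group, so the gap to the other libraries divided by the range was 1. The value rests on 1 read. Of 18 member groups examined this was the 1 past the limit, and chance puts about 1 group in 20 past it. That rate does not apply to this group, because reads in only 1 library always give a ratio of 1.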

How the results depend on the processing

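Over 16 alternatives (other scalings, filters and tools, the replicate block, and each library left out), the log2 fold change was -1.73 to -1.34 for Elovl7 and -1.63 to -1.45 for Cds1, a description since these counts chose them. Elovl1, Elovl2, Elovl6 and Cds2 kept their sign wherever they were fitted. Elovl5 was -0.0046 with upper-quartile scaling, -0.0033 with the stricter filter, -0.015 in limma-voom, -0.017 with the replicate block and -0.17 to 0.13 without 1 library, and Elovl4 was -0.19 to 0.36 without 1 library. Without 1 library, Tecr was at -0.10 to 0.098, S100b at -0.082 to 0.33, Acsl5 at -0.0024 to 0.12 and Pitpna at -0.0015 to 0.089. DESeq2 called 268 genes higher, 94 lower and 1 pathway gene lower. Leaving out 1 library gave 50 (without control 2 or Fra-2 3) to 153 (without Fra-2 2) higher, 22 (without Fra-2 1) to 52 (without Fra-2 2) lower, and 0 to 1 pathway genes lower. Leaving out control 3 gave 67 higher and 23 lower, control 2 gave 26 lower, Fra-2 1 gave 54 higher and Fra-2 4 gave 72 higher. The cause was not tested. With the replicate number as a block, 137 genes were higher and 53 lower. The labels do not say that numbers pair libraries. Same-numbered libraries had correlations of 0.0088, 0.22, 0.078 and 0.30 in their deviations from the group means, and differently numbered ones -0.29 to 0.19. Control 2, control 3 and control 4 were closest to the library of their own number, and control 1 to Fra-2 2. From the other side, Fra-2 1 was closest to control 2 and Fra-2 3 to control 4. With median transcript length in place of all exons, 27 of 28 member pairs kept their order of mean log2 level, Elovl5 then lying above Elovl1. All 28 did in the controls alone, where Elovl4 and Elovl2 swap places by plain means, and 26 in the Fra-2-labelled libraries alone, a setting added after seeing the data. Elovl2 and Elovl4 could not be tested under the stricter filter. The few reads of Elovl2, Elovl3 and Elovl4 limit what can be said of them.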

Other observations

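With Plce1, 8 of 109 pathway genes (7.34%) had an unadjusted edgeR p under 0.05, against 8.71% of all tested genes, so the count is no higher than the background. The 7 others had no adjusted call, and all 7 had the higher mean in the Fra-2-labelled libraries. They are named here after their values were seen. Lpin3, a phosphatidic acid phosphatase, measured 2.0, 1.28, 1.42 and 2.53 CPM in the controls and 4.38, 5.92, 2.93 and 2.20 CPM in Fra-2 1 to Fra-2 4 (edgeR adjusted p = 0.245). Slc27a1, a fatty acid transport protein with acyl-CoA synthetase activity, measured 25.4 ± 5.44 and 36.1 ± 4.41 CPM, without overlap (edgeR adjusted p = 0.224). Srebf1, the regulator of fatty acid synthesis genes, measured 17.7 ± 1.29 and 23.0 ± 3.95 CPM, also without overlap (edgeR adjusted p = 0.411). The others were Lclat1, the diacylglycerol kinase gene Dgkb (log2 fold change 0.57), the phosphoinositide kinase gene Pip4k2a (0.26) and the phospholipase gene Plcd3 (0.49). Dgkb, Pip4k2a and Plcd3 were also without overlap between groups, while Lclat1 and Lpin3 overlapped. In all, 7 of the 109 pathway genes (6.42%) were without overlap, in either direction, against 5.76% of all tested genes.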
